A study of Mus musculus with 6 samples.

Results

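Neutrophils are short-lived phagocytes of the innate immune system that leave the bone marrow with ready-made granules and enter inflamed mucosa in large numbers. They carry the S100A8 and S100A9 proteins as a calcium-binding complex, kill microbes with granule proteins and oxidants, and, once in tissue, release chemokines and interleukin-1 that recruit and activate other leukocytes. In the colon they are a usual component of the infiltrate of graft-versus-host disease, in which donor T cells injure the recipient's gut.

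The cells described here are 596 barcodes with a neutrophil transcript profile among 41119 barcodes kept from 6 single-cell libraries of mouse colon, of 60605 deposited. A kept barcode had at least 300 genes and at most 10% mitochondrial UMIs (unique molecular identifiers, each counting 1 captured transcript), and barcodes of the BM library that also occurred in the GVHD library were dropped. A kept barcode was taken as a neutrophil when S100a8 and S100a9 together made up at least 1% of its UMIs and at least 10 UMIs, when it held at least 1 UMI of Retnlg, G0s2, Csf3r or Hdc, at most 2 UMIs of C1qa, C1qb and C1qc together, and 0 UMIs of Csf1r and of Epcam. The cells were thus chosen by measured transcript counts of these genes, so their levels are given as a description only. Of the 596 cells, 591 lay in the 4 libraries from WT and IL-34-/- recipients and are described below.

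The study sorted donor-derived cells from the colons of mice that had received a transplant, to ask how interleukin-34 (IL-34), a ligand of the CSF-1 receptor, acts on colon macrophages and T cells. The libraries named BM and GVHD held CD11b+ CD64+ macrophages from recipients of bone marrow alone and of bone marrow with added spleen cells. Macrophages of the same sort came from WT recipients and from IL-34-/- recipients, here called the WT macrophage library and the library labelled IL34KO, and sorted T cells from WT and IL-34-/- recipients gave the WT T-cell library and the T-cell library labelled IL34KO. Each group was 1 library. The strain, the time after transplant, the number of mice pooled and the graft of the WT and IL-34-/- recipients were not given in the sources used here. Neutrophils were the target of neither sort, so they are cells that came through a gate for another cell type, and the sort sets their share. The genotype in the labels is that of the recipient.

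With 1 library per group there is no replicate, so values are compared by size alone. All intervals are exact 95% intervals (Poisson for a level, Clopper-Pearson for a share, conditional binomial for a ratio) and cover counting error only, not the spread between mice or sorts. Levels are in CPM, the UMIs of a gene scaled to the summed UMIs of the neutrophils of its library. Since a UMI counts 1 end of a transcript, levels were not divided by gene length. Where 4 values follow one another, they stand for the WT macrophage library, the library labelled IL34KO, the WT T-cell library and the T-cell library labelled IL34KO, in that order.

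Il34 itself was checked first, because its deletion defines the groups. Over all kept barcodes, Il34 had 51 UMIs in the BM library, 21 in the GVHD library, 84 in the WT macrophage library, 168 in the library labelled IL34KO, 76 in the WT T-cell library and 68 in the T-cell library labelled IL34KO. Scaled to the library's UMIs this was 0.974 CPM (0.777 to 1.21) in the WT macrophage library and 1.81 (1.55 to 2.11) in the library labelled IL34KO, and 0.770 (0.607 to 0.964) and 1.07 (0.829 to 1.35) in the T-cell libraries. Il34 transcript was thus not lower in the libraries labelled IL34KO. The sorts were for donor-derived cells, but the kept barcodes also held epithelial markers, at 3427 to 5066 CPM in sum outside the neutrophils. Whether the Il34 UMIs came from donor or recipient cells was not tested. The sources used here do not give which part of the gene the recipients lack. These counts therefore do not check the labels. Of the neutrophils, 1 cell of the library labelled IL34KO held an Il34 UMI. The BM and GVHD libraries shared 2502 barcodes, while other pairs of libraries shared 5 to 75.

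Neutrophils made up 2.67% of kept barcodes in the WT macrophage library (144 of 5388, 2.26 to 3.14%) and 5.79% in the library labelled IL34KO (386 of 6669, 5.24 to 6.38%). In the T-cell libraries they made up 0.300% (43 of 14337, 0.217 to 0.404%) with WT recipients and 0.193% (18 of 9314, 0.115 to 0.305%) with IL-34-/- recipients. The GVHD macrophage library held 5 of 2785 (0.180%), and the BM macrophage library 0 of 2626, where the limit of 3 counts allows a share of up to 0.114% and the exact interval reaches 0.140%. The share in the library labelled IL34KO was 2.17 times that of the WT library in the macrophage sort (1.78 to 2.64) and 0.644 times in the T-cell sort (0.350 to 1.14). The interval of the T-cell sort includes 1, and the difference between the sorts was not tested. Since neither sort had these cells as its target, the number of neutrophils in the colon cannot be told apart from how many passed the gate.

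The neutrophils had few UMIs. Their median UMI count was 2175.5 and 1771.5 in the WT macrophage library and the library labelled IL34KO, and 1096 and 1328 in the T-cell libraries, where other kept barcodes had medians of 5714.5 to 12902. Median numbers of genes were 827, 732, 567 and 661.5 in the same order, and median mitochondrial shares were 0.593%, 0.433%, 0.915% and 0.619%. Summed over cells the neutrophils held 381389, 766314, 52497 and 25236 UMIs, so that 1 UMI was worth 2.62, 1.30, 19.0 and 39.6 CPM. A gene with no UMI could still lie at up to 7.87, 3.91, 57.1 and 119 CPM, and low genes of the T-cell libraries are therefore not resolved.

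S100a8 and S100a9, which lie on mouse chromosome 3 (GRCm38, chr3:90668978-90670035 and chr3:90692632-90695721), were the transcripts of the rule. S100a9 stood at 48580 and 57994 CPM in the WT macrophage library and the library labelled IL34KO and, in the libraries sorted for T cells, at 26249 and 22745 CPM, and S100a8 at 28053, 34147, 12420 and 6935 CPM. G0s2, an inhibitor of triglyceride lipase, stood at 9072, 9463, 11067 and 8718 CPM, near the same level in all 4 libraries. Retnlg, a resistin-like secreted protein of mouse neutrophils, stood at 4709, 6476, 2457 and 1268 CPM and was lower in both T-cell libraries. Hdc, which makes histamine, ranged from 2918 to 3012 CPM, and Csf3r, the receptor for the granulocyte growth factor G-CSF, from 789 to 1347 CPM.

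The cells filled the S100 scale from its threshold upward. The median S100a8 plus S100a9 share was 4.01% and 7.61% of a cell's UMIs in the WT macrophage library and the library labelled IL34KO, and 2.43% and 2.57% in the T-cell libraries. At the threshold, the lowest cells inside held 1.01 to 1.10% and the highest outside 0.711 to 0.986%. Cells that failed on the percentage alone numbered 27, 22, 9 and 1. The 44 cells from 0.5 to 1% carried T-cell markers at 1593 CPM in sum, against 11.4 to 64.5 CPM in the 4 ranges of share inside the rule.

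**Figure D1:**
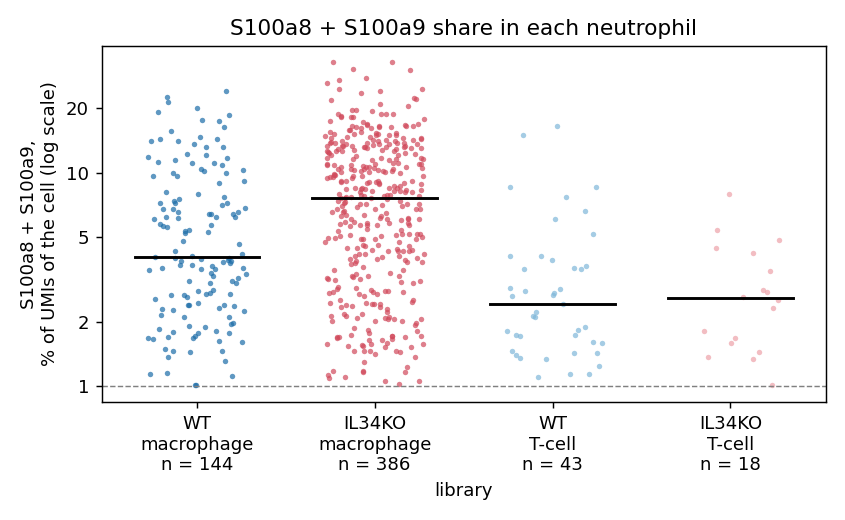
S100a8 plus S100a9 as a percentage of the UMIs of each neutrophil (log scale), by library; each point is 1 cell, the black bar is the median and the dashed line the 1% threshold of the rule. The medians are 4.01%, 7.61%, 2.43% and 2.57% from left to right, and only the 2 macrophage libraries have more than 2 cells over 10%.

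Neutrophil markers that the rule did not use were present in each library. Of 17 such genes, 17, 17, 17 and 14 had UMIs, and their summed level was 23595, 15405, 11505 and 11888 CPM against 928 to 1680 CPM in the other kept barcodes. The 17 include Ngp, Ltf and Camp, which gave 3949 of the 8999 UMIs summed in the WT macrophage library. There, 99.3% of the 3949 lay in 10 cells described below. In the library labelled IL34KO these 3 genes gave 810 of 11805 UMIs. Cxcr2, the receptor for CXCL1 and CXCL2, stood at 391, 470, 381 and 396 CPM in the neutrophils and at 0.456 to 16.0 CPM in the other barcodes. Il1r2, the decoy receptor of interleukin-1, stood at 1589, 1810, 2305 and 2853 CPM, and Clec4d, a lectin receptor for fungal and mycobacterial ligands, at 2604, 2472, 2095 and 2417 CPM. Among Ly6c2+ Csf1r+ monocytes of the same libraries (200, 285, 51 and 36 cells), Clec4d was at 166 to 389 CPM and Cxcr2 at 0 to 39.3 CPM. Ly6g, the antigen used to gate mouse neutrophils, was low, at 147 and 124 CPM in the macrophage libraries, with 1 UMI in the WT T-cell library and 0 in the T-cell library labelled IL34KO. The 8 primary granule genes summed to 296, 95.3, 114 and 198 CPM, against 292 to 340 CPM in the other barcodes. Mpo, Ctsg and Bpi were at 0 in all 4 libraries, and Elane had 2 UMIs, both in the WT macrophage library. Most of the sum in the macrophage libraries came from Serpinb1a, an inhibitor of granule proteases (66 and 12 UMIs), and Cd63, a granule membrane protein that other cells also make (37 and 59 UMIs).

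Markers of other cells gave the following sums. The 14 macrophage markers summed to 695, 545, 838 and 832 CPM, against 5109 to 12162 CPM in other barcodes, with Csf1r at 0 by the rule. The 10 antigen presentation markers summed to 1335, 1467, 1886 and 1545 CPM against 12419 to 16791, and Flt3, Ccr7, Xcr1 and Cd209a were at 0. The monocyte list summed to 5275, 3683, 3924 and 4953 CPM against 11993 to 16704, with Ccr2 at 0 in 3 libraries, and the epithelial list to 414, 565, 667 and 238 CPM against 3427 to 5066. T-cell markers summed to 31.5, 17.0, 190 and 0 CPM, and B-cell, plasma-cell and erythroid markers to 0 in all 4. Eosinophil, basophil and mast-cell markers summed to at most 19.0 CPM with Epx and Prg2 at 0. The part of free RNA or of joined cells in these levels was not tested.

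The most abundant transcripts outside the rule included chemokine, cytokine and immune-regulatory genes at much the same level in all 4 libraries. Cxcl2, the chemokine that draws neutrophils through CXCR2, stood at 24925 and 27670 CPM in the WT macrophage library and the library labelled IL34KO and, in the libraries sorted for T cells, at 27049 and 24925 CPM. Il1b, the main interleukin-1 of myeloid cells, stood at 17331, 17985, 17601 and 19932 CPM. For Cxcl2 the library labelled IL34KO was the higher of the macrophage pair and the lower of the T-cell pair. In other kept barcodes Cxcl2 was at 1541 to 2923 CPM and Il1b at 1872 to 3394 CPM. Fth1, the heavy chain of ferritin, stood at 30431, 28547, 30573 and 25361 CPM.

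Acod1, which makes the antimicrobial metabolite itaconate, stood at 9471, 9693, 7105 and 7133 CPM, somewhat lower in the T-cell libraries. Ccrl2, an atypical receptor that binds chemerin, stood at 3534, 3974, 5791 and 6419 CPM and was higher in both T-cell libraries than in either macrophage library. Cd274, which encodes the T-cell inhibitory ligand PD-L1 (chromosome 19, chr19:29367455-29388095), stood at 3217, 3479, 3257 and 4676 CPM. Nfkbia, the inhibitor of NF-kappaB that NF-kappaB itself induces, ranged from 5615 to 6499 CPM, and Nlrp3, the inflammasome sensor, from 1822 to 2576 CPM. Other signals were lower. Il1rn, the interleukin-1 receptor antagonist, ranged from 1061 to 1347 CPM, Osm, a cytokine of the interleukin-6 family, from 419 to 548 CPM, and Il10 from 49.8 to 119 CPM.

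**Figure D2:**
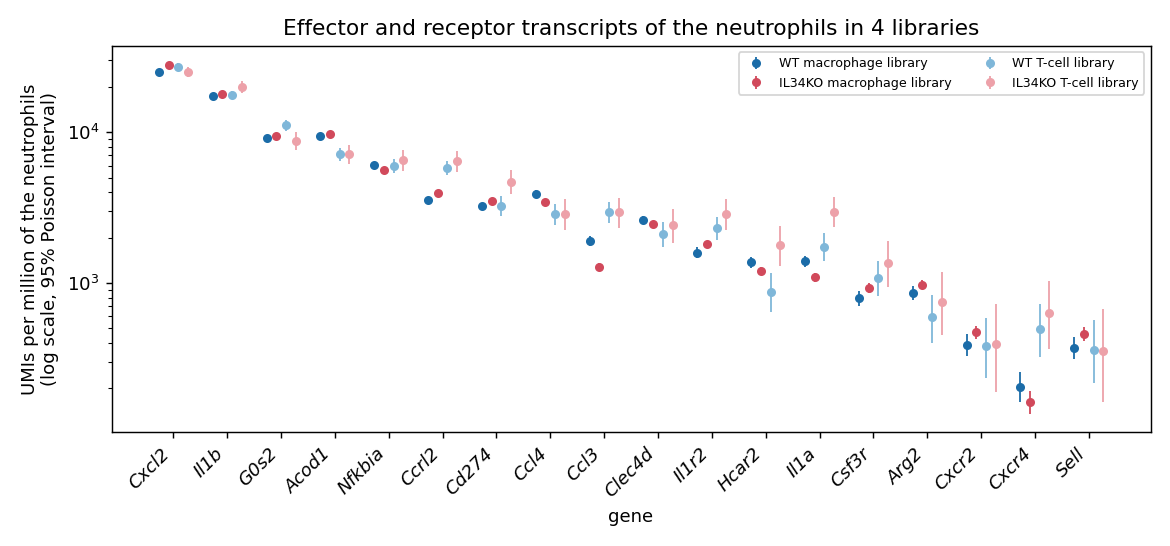
Levels of 18 transcripts in the neutrophils of the 4 libraries (CPM, log scale) with exact 95% Poisson intervals, which cover counting error only. Cxcl2, Il1b and Nfkbia lie close together in all 4 libraries, whereas Ccl3 and Cxcr4 lie lower in the 2 macrophage libraries and the intervals of the T-cell libraries are the widest.

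Most single neutrophils carried these transcripts. After thinning every cell to 500 UMIs, Cxcl2 was detected in 91.0% and 95.6% of neutrophils of the WT macrophage library and the library labelled IL34KO, and in 95.3% and 94.4% in the T-cell libraries. In T cells of the same libraries thinned likewise, it was detected in 1.93 to 4.76%. The matching shares were 93.8%, 97.9%, 93% and 100% for Il1b, with 2.16 to 7.25% in T cells, and 65.3%, 74.1%, 74.4% and 83.3% for Cd274, with 3.86 to 7.04% in T cells. Unthinned, Cd274 was seen in 91.0%, 95.1%, 86.0% and 100% of neutrophils. Median depths before thinning were 1096 to 2175.5 UMIs in neutrophils and 2915.5 to 5179 in T cells. Cxcr2 was detected in 23.6%, 18.9%, 14% and 16.7% of thinned neutrophils and in at most 0.0405% of T cells. Ccl4 was detected in 43.1% and 39.4% in the macrophage libraries and in 27.9% and 22.2% in the T-cell libraries, beside 22.7 to 27.6% of T cells. T cells make Ccl4 themselves, so their share does not measure free RNA for this gene. Siglecf and Arg1 were each detected in at most 0.518% of thinned neutrophils of a library. Unthinned, Siglecf was seen in 4.17% of neutrophils of the WT macrophage library and Arg1 in 4.65% of those of the WT T-cell library. In the WT T-cell library a gene detected in 0 cells could still lie at up to 6.98%.

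Chemokines for other leukocytes were also present. Cxcl10, an interferon-induced attractant of activated T cells, stood at 3705 and 3332 CPM in the macrophage libraries and 1505 and 2298 CPM in the T-cell libraries. Ccl3 stood at 1898, 1278, 2953 and 2932 CPM, lowest in the library labelled IL34KO. The interferon response genes Rsad2 and Gbp2 were well above their level in other barcodes. Rsad2, an antiviral enzyme, was at 1101, 1257, 895 and 911 CPM against 79.4 to 132 CPM, and Gbp2, a guanylate-binding protein induced by interferon-gamma, at 2273, 2229, 2000 and 1625 CPM against 428 to 603 CPM. Since the rule chose these cells against the others, such gaps are descriptions.

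The 222 bases of mouse chromosome 5 just before the Cxcl2 start (RefSeq promoter table, GRCm38.p6, plus strand, chr5:90903649-90903870) are shown because Cxcl2 was among the highest transcripts in each library. The window was searched on both strands for a kappaB-type pattern, GGG and TTTCC with any 2 bases between them, which is a form of the NF-kappaB binding site. Capitals mark the 2 matches, which do not overlap.

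Cxcl2: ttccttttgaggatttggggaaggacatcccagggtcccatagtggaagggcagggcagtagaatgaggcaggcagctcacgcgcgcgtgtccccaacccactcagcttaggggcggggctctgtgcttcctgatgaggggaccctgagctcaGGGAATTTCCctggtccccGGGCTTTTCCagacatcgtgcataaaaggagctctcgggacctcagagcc

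The matches lie 69 to 60 and 50 to 41 bases before the window's end. Of 32851 RefSeq mouse promoters cut to the same length, 1.17% held the pattern. The 250 bases before Il1b (chr2:129371140-129371389, minus strand) held no match, where 1.41% of promoters did. A match is a run of letters and not a measured binding site.

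A small set of cells stood apart within the neutrophils by transcripts of secondary granules, the stores that a neutrophil fills while it matures in the marrow. Cells with at least 10 UMIs of Ngp, Camp and Ltf together, here called granule-gene-high, numbered 10 of 144 in the WT macrophage library (6.94%, 3.38 to 12.4%) and 10 of 386 in the library labelled IL34KO (2.59%, 1.25 to 4.71%). The T-cell libraries held 1 of 43 and 0 of 18. These 10 cells held 99.3% of the 3949 UMIs of the 3 genes in the WT macrophage library, and the 10 of the library labelled IL34KO held 93.6% of 810. The highest cells held 1124 and 368 UMIs, while 114 of 144 and 342 of 386 cells held 0. Near the limit, 1 of the 10 cells in the WT macrophage library and 4 of the 10 in the library labelled IL34KO held 10 to 19 UMIs, and 1 further cell, in the WT library, held 5 to 9. The limit was set after these counts were seen. It is a count of UMIs, so cells with more UMIs meet it more easily, and median depths were 2175.5 and 1771.5 UMIs in the macrophage libraries. The part of depth in the 2 shares was not tested.

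**Figure D3:**
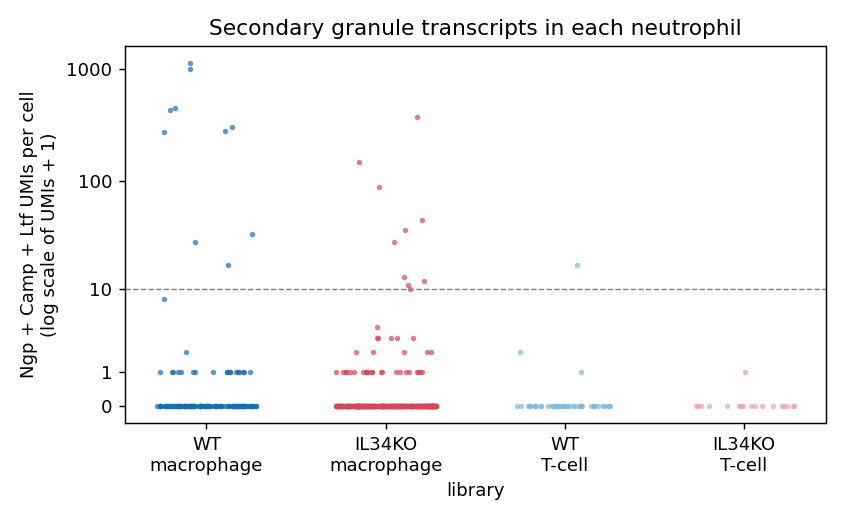
Summed UMIs of Ngp, Camp and Ltf in each neutrophil (log scale of UMIs plus 1), by library; each point is 1 cell and the dashed line marks 10 UMIs. Most cells sit at 0, and the cells over 100 UMIs are in the macrophage libraries, with a maximum of 1124 UMIs.

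Ngp (neutrophilic granule protein), Camp (the cathelicidin antimicrobial peptide) and Ltf (the iron-binding lactoferrin) all lie on mouse chromosome 9, at chr9:110419747-110423012, chr9:109847379-109849617 and chr9:111019271-111042767 (GRCm38). The bases before their starts (RefSeq promoter table, GRCm38.p6) are shown because these 3 genes set the granule-gene-high cells apart. They span chr9:110419558-110419746 on the plus strand for Ngp, chr9:109849618-109849706 on the minus strand for Camp and chr9:111019042-111019270 on the plus strand for Ltf. Capitals mark matches, on either strand, of TTGCNNAA, a core of the site bound by C/EBP factors, which drive granulocyte maturation.

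Ngp: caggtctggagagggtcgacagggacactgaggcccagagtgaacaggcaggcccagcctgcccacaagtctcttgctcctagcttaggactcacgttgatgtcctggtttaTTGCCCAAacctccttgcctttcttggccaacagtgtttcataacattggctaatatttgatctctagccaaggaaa

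Camp: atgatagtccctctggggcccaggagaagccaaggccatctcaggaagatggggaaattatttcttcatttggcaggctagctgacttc

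Ltf: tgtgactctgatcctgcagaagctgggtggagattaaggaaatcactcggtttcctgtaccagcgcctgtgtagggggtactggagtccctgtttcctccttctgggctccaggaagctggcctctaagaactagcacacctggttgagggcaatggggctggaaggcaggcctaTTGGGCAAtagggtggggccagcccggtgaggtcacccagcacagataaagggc

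Ngp held 1 match 77 to 70 bases before the window's end, and Ltf 1 match 54 to 47 bases before it, read on the other strand. Camp held none. Windows of these lengths held the pattern in 7.76%, 9.02% and 3.68% of the 32851 promoters for Ngp, Ltf and Camp. Both patterns were picked with results and letters of these windows known.

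Granule-gene-high cells carried further granule transcripts and low levels of the effector transcripts named above. In the WT macrophage library Ngp was at 29675 CPM in the 10 cells and 47.6 CPM in the other 134, Camp at 20266 and 6.35 CPM, and Ltf at 9183 and 34.9 CPM, which the choice of cells fixes. Genes not used to choose them differed too. Lcn2, an iron-sequestering granule protein, was at 12063 and 536 CPM, Chil3, a chitinase-like protein, at 6439 and 66.7 CPM, and Cebpe, the factor needed for secondary granules, at 181 and 0 CPM. The proliferation gene Mki67 was at 588 and 54.0 CPM. These levels are of summed UMIs, and cells of 15330 and 15805 UMIs gave a large part of the 66319 UMIs of the 10 cells.

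Il1b ran the other way, at 1870 CPM in the granule-gene-high cells and 20586 CPM in the rest, as did Cxcl2 at 4132 and 29301 CPM and Cd274 at 90.5 and 3875 CPM. The library labelled IL34KO showed a smaller gap, with Il1b at 4424 and 18617 CPM and Cxcl2 at 11222 and 28437 CPM, and Mki67 was at 0 in its 10 cells, of which 4 lay near the limit. The granule-gene-high cells had more UMIs, with median UMIs of 5098 against 2131 in the WT macrophage library and 3196 against 1760 in the library labelled IL34KO. The limit of 10 UMIs fixes part of this gap. Their median S100 share was 16.0% against 3.85%, and 16.6% against 7.33%. Over the 4 libraries, the 21 granule-gene-high cells and the other 570 had Retnlg at 11425 and 5120 CPM, Csf3r at 137 and 969 CPM, and Cxcr2 at 176 and 464 CPM.

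Across all 591 cells, levels of genes outside the rule shifted with the S100 share. Over the ranges 1 to 2%, 2 to 5%, 5 to 10% and above 10% (97, 169, 150 and 175 cells), Wfdc17, a secreted whey-acidic-protein family member, stood at 2445, 4222, 7408 and 8377 CPM. Ifitm1, an interferon-induced membrane protein, stood at 2194, 3738, 5147 and 5472 CPM, S100a6, another member of the S100 family, at 1342, 2128, 4055 and 6099 CPM and Mmp8, neutrophil collagenase, at 32.3, 34.2, 250 and 746 CPM. In these sums over 4 libraries the 4 genes were highest in the top range, where 142 of the 175 cells came from the library labelled IL34KO. Within the WT macrophage library Wfdc17 was lower above 10% than from 5 to 10%, at 3292 and 7577 CPM, and Ifitm1 at 2339 and 5176 CPM. With the granule-gene-high cells left out, the WT values above 10% were 5797 CPM for Wfdc17 and 5192 CPM for Ifitm1. S100a6 and Mmp8 were highest above 10% in each macrophage library. Retnlg, a gene of the rule, went from 871 to 10964 CPM.

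In the same sums 4 other genes were lower in each successive range. Il1a, the interleukin-1 released by damaged cells, stood at 3187, 1675, 950 and 464 CPM, Ccl3 at 3781, 1951, 1223 and 771 CPM, Tnf at 994, 503, 302 and 206 CPM and Icam1, an adhesion molecule of activated neutrophils, at 1323, 1240, 697 and 343 CPM. Cxcr4, the receptor that returns aged neutrophils to marrow, stood at 329, 351, 173 and 59.5 CPM, highest from 2 to 5% and lowest above 10%. Cd274 went from 4297 to 2322 CPM and Cxcl2 from 34432 to 21602 CPM, which are smaller relative differences. A higher share of 2 genes lowers the CPM of all others, and macrophage markers moved too, from 884 to 380 CPM in sum, with antigen presentation markers from 2316 to 931 CPM. Their part in this gradient was not tested. Of the WT macrophage library's neutrophils 21.5% lay above 10% (31 of 144, 15.1 to 29.1%), and of those in the library labelled IL34KO 36.8% (142 of 386, 32.0 to 41.8%). The T-cell libraries had 2 of 43 and 0 of 18 there.

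Between the macrophage libraries, secondary granule and proliferation genes were lower in the neutrophils of the library labelled IL34KO. The UMIs of Ngp, Camp and Ltf came almost wholly from the granule-gene-high cells. Genes were compared when they had at least 20 UMIs over both libraries and at least 50 CPM in 1 of them. They were counted as higher or lower when their CPM differed 1.5-fold or more. For log2 ratios, 10 CPM was added to both. Of 2472 genes compared, 145 (5.87%) were higher in the library labelled IL34KO and 368 (14.9%) lower. With trimmed-mean (TMM) scaling the split was 193 higher and 307 lower, and with median-of-ratios scaling 194 and 307. With cells thinned to 500 UMIs it was 228 and 225, where lower genes were not in excess. Without the granule-gene-high cells, 183 (7.5%) of 2440 were higher and 272 (11.1%) lower. The median log2 ratio of all tested genes was -0.06.

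Of the 10 secondary granule genes, all tested, 8 were lower, beside 14.9% of all tested genes, with a median log2 ratio of -1.30. Camp stood at 3529 CPM in the WT macrophage library and 192 CPM in the library labelled IL34KO, so that the ratio was 0.0544 (0.0455 to 0.0645). Ltf stood at 1626 and 147 CPM (0.0907, 0.0736 to 0.111), and Ngp at 5199 and 718 CPM (0.138, 0.125 to 0.152). Also lower were Chil3 (ratio 0.110), Lyz2, lysozyme (0.486), Lcn2 (0.480) and Cybb, the catalytic subunit of the NADPH oxidase (0.515). Lyz2 and Cybb were not limited to the granule-gene-high cells, since the other 134 cells of the WT macrophage library had them at 1235 and 492 CPM. The other 376 cells of the library labelled IL34KO had them at 1273 and 458 CPM. With the granule-gene-high cells left out, 6 of the 10 were tested, 1 was higher and none lower, and the median was 0.04. Ngp then had a ratio of 1.03 (0.551 to 2.03), Chil3 1.02 (0.604 to 1.80), Lyz2 1.03 (0.915 to 1.16) and Lcn2 1.62 (1.37 to 1.94), opposite to its direction with all cells.

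Proliferation genes were lower as well. All 6 tested of 12 were at least 1.5-fold lower, beside 14.9% of all tested genes, with a median log2 ratio of -1.70. Among them were Top2a, the DNA topoisomerase of dividing cells (41 and 6 UMIs), and Mki67 (56 and 26 UMIs). Without the granule-gene-high cells 2 were tested and 1 was lower, with a median of -0.50. Top2a then lay below the 50 CPM limit, at 3.17 and 8.19 CPM, and its log2 ratio changed sign to 0.47. Without the top 5% of cells by UMIs that of Top2a was 0.52. The histone genes Hist1h1b, Hist1h2ae and Hist1h2ap were among the 10 lowest ratios, as were Serpinb1a (66 and 12 UMIs) and Orm1, an acute-phase protein (23 and 2 UMIs). Of the 81 UMIs of Hist1h2ap in the WT macrophage library, 4 lay outside the granule-gene-high cells. The log2 ratio of Hist1h1b changed sign to 0.63 without those cells and to 0.54 without the top 5% of cells by UMIs.

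Among genes that were higher, Wfdc17 stood at 4439 CPM in the WT macrophage library and 7670 CPM in the library labelled IL34KO, so that the ratio was 1.73 (1.64 to 1.83), and 1.54 (1.46 to 1.63) without the granule-gene-high cells. Ifi27l2a, an interferon-induced gene, stood at 1007 and 1832 CPM, a ratio of 1.82 (1.62 to 2.04) and 1.56 (1.39 to 1.75) without them. Within the 4 ranges of S100 share, granule-gene-high cells left out, the ratio of Wfdc17 was 1.55, 1.07, 1.01 and 1.89, and that of Ifi27l2a was 2.09, 1.68, 1.03 and 2.00. Both lay near 1 from 5 to 10% and near 2 above 10%, where 21 and 134 cells were compared. Leaving out the granule-gene-high cells also brought Mmp8 (1.92, 1.38 to 2.72), Wfdc21 (1.78, 1.49 to 2.15) and Ifitm6 (1.87, 1.41 to 2.51) above 1.5. Within the same 4 ranges these ratios were not all above 1. That of Mmp8 ran from 0.301, on 3 and 1 UMIs, to 1.81, and above 10% it was 1.10 (0.688 to 1.83). That of Wfdc21 was lowest from 2 to 5%, at 0.678, and highest above 10%, at 1.65. That of Ifitm6 was lowest from 5 to 10%, at 0.647, and highest above 10%, at 1.757.

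A list of stefins, which inhibit cysteine proteases, and other protease inhibitors had 3 of 7 tested members higher, the stefins Stfa1, Stfa2 and Cstb, and 1 lower, the serpin gene Serpinb1a, beside 5.87% and 14.9% of all tested genes. The list's median log2 ratio was 0.36. Stfa1 had 3 UMIs in 3 cells of the WT macrophage library and 73 UMIs in 25 cells of the library labelled IL34KO, and Stfa2 had 14 UMIs in 6 cells and 94 UMIs in 26 cells. Stfa1, Stfa2 and their relatives are near-identical, so how reads were shared among them is uncertain. Of single genes, Il18, an interleukin-1 family cytokine, had 9 and 63 UMIs (3.48, 1.72 to 7.97), spread over 9 and 44 cells. Nos2, inducible nitric oxide synthase, had 12 and 67 UMIs (2.78, 1.49 to 5.64), and Ccl5 33 and 163 (2.46, 1.68 to 3.69). Blvrb, Prr5l and Uqcrb were also among the 10 highest. Reg3b, an epithelial antimicrobial lectin, had 14 and 105 UMIs, and stood at 167 and 924 CPM in the other barcodes of these libraries; its part from free RNA was not tested. Fabp4 and Ext1 ranked there on few cells, with 41 of 43 and 23 of 74 UMIs in 1 cell.

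Icam1, Ccl3 and Tnf lay lower in the library labelled IL34KO, by less than 1.5-fold with all cells and by more without the granule-gene-high cells. Icam1 stood at 978 and 663 CPM, with a ratio of 0.678 (0.592 to 0.777), and 0.589 (0.514 to 0.676) without the granule-gene-high cells. Ccl3 stood at 1898 and 1278 CPM, with ratios of 0.673 (0.611 to 0.742) and 0.593 (0.537 to 0.654), and Tnf at 482 and 351 CPM, with ratios of 0.728 and 0.634. Within the S100 ranges, cells of like share compared, the ratio of Icam1 was 0.788, 0.930, 0.555 and 0.467 and that of Ccl3 0.796, 0.955, 0.716 and 0.366. Both ratios were nearest to 1 from 2 to 5% and lowest above 10%. That of Tnf was 1.34, 0.534, 0.590 and 1.12, above 1 in the first and the last range. Of 13 survival genes tested 3 were lower, beside 14.9% of all tested genes: Bcl2a1b (0.662, 0.597 to 0.735) and Bcl2a1d (0.479, 0.363 to 0.633), near-identical anti-apoptotic BCL2 relatives whose reads may be split, and the pro-apoptotic Bax (0.523, 0.270 to 1.02). The interval of Bax includes 1, and its log2 ratio was 0.13 when the conditions on C1q genes, Csf1r and Epcam were dropped.

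The most abundant effector transcripts differed little between the macrophage libraries. Ratios were 1.11 (1.08 to 1.14) for Cxcl2, 1.04 (1.01 to 1.07) for Il1b, 1.02 (0.983 to 1.07) for Acod1 and 1.08 (1.01 to 1.16) for Cd274. Without the granule-gene-high cells each was lower in the library labelled IL34KO. Cxcl2 was then at 29301 and 28437 CPM, Il1b at 20586 and 18617, Acod1 at 11188 and 9935, and Cd274 at 3875 and 3615 CPM. By S100 range, the ratio of Il1b was lowest above 10%, at 0.731, and that of Cxcl2 highest from 1 to 2%, at 1.33. Of 21 type I interferon genes tested 0 were higher and 0 lower, with a median log2 ratio of 0.20. Among 20 interferon-gamma genes 3 were higher (Iigp1, Irgm2 and Nos2) and 0 lower, with a median of 0.16. Of all tested genes 5.87% were higher and 14.9% lower. Without the granule-gene-high cells 2 of the 20 were higher, beside 7.5% of all tested genes, with a median of -0.000545. No pattern-recognition gene of 16, chemotactic receptor of 9 or adhesion gene of 10 reached 1.5-fold. Of 10 cytokine genes, Il18 was higher and Il23a, a subunit of interleukin-23, lower, beside 5.87% and 14.9% of all tested genes. Il23a had 113 and 134 UMIs (ratio 0.590, 0.456 to 0.765). With the S100 limit at 3% the log2 ratio of Il23a was 0.15. Of 11 chemokine genes, beside the same 5.87% and 14.9%, Ccl5 was higher and the monocyte attractant Ccl2 lower (48 and 36 UMIs, 0.373, 0.235 to 0.587). Both depended on the S100 limit: the log2 ratio of Ccl2 was 1.03 at 3%, and that of Ccl5 was -0.48 at 0.5%. Of the WT library's 48 Ccl2 UMIs, 32 lay in cells at 1 to 2%.

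**Figure D4:**
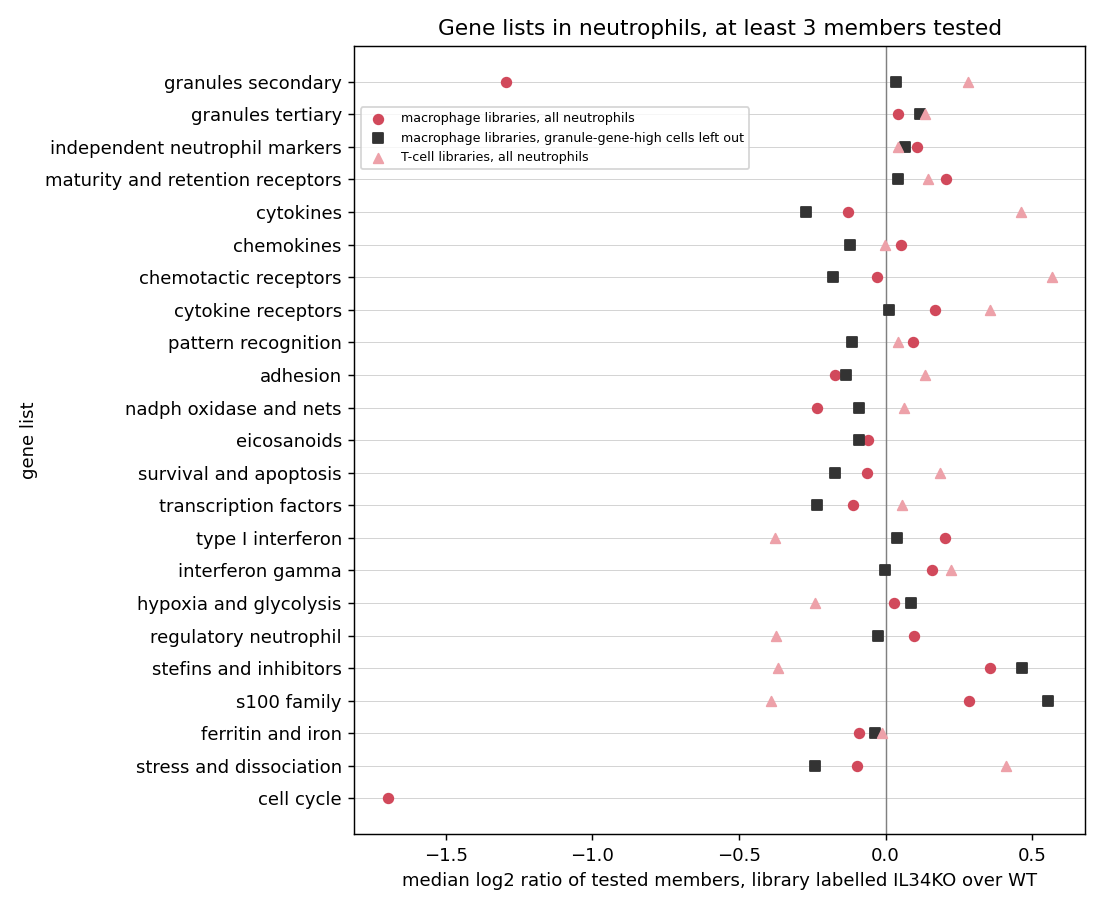
Median log2 ratio of the tested members of each gene list in neutrophils, library labelled IL34KO over WT, for lists with at least 3 tested members. Secondary granule genes sit at -1.30 with all cells and at 0.04 with granule-gene-high cells left out.

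**Figure D5:**
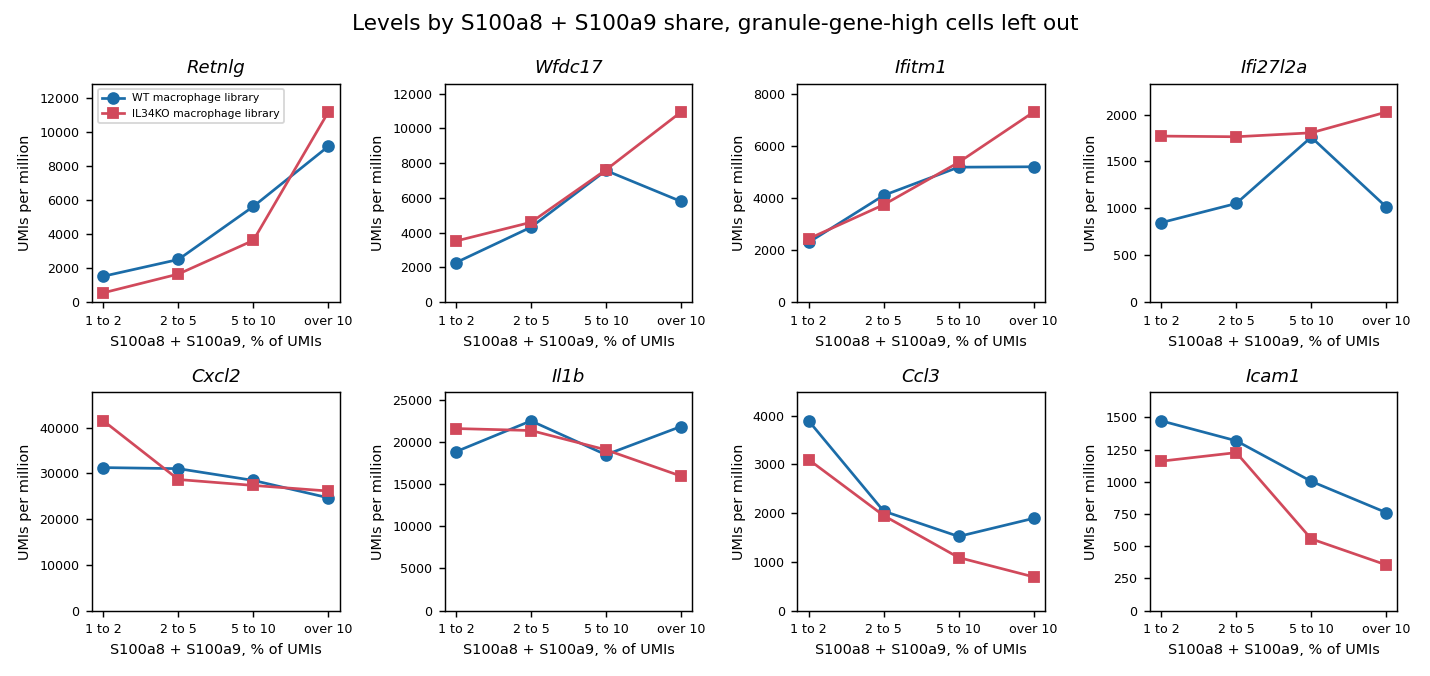
Levels of 8 genes (CPM, linear axes from 0) in neutrophils of the macrophage libraries by range of S100a8 plus S100a9 share, granule-gene-high cells left out. Circles are the WT macrophage library (27, 51, 35 and 21 cells) and squares the library labelled IL34KO (45, 92, 105 and 134 cells); Ccl3 separates most above 10% and Icam1 from 5 to 10%, at 1004 and 557 CPM.

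The T-cell libraries give another pair of neutrophil sets that shares no library with the macrophage sort, but with 43 and 18 cells. Of 727 genes compared, 138 (19%) were higher in the T-cell library labelled IL34KO and 157 (21.6%) lower, so that a 1.5-fold difference was common in these sums. Without the granule-gene-high cell, 143 (20.2%) of 707 were higher and 147 (20.8%) lower. At the 50 CPM limit a gene has 2.62 UMIs in the WT T-cell library and 1.26 in the other.

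Some cytokine genes were higher in the T-cell library labelled IL34KO. Of 8 cytokine genes tested 4 were higher, beside 19% of all tested genes, and none lower, with a median log2 ratio of 0.46 (-0.15 to 1.29) against -0.03 for all genes tested. Of 9 chemokine genes Cxcl3 and Cxcl10 were higher and Ccl5 lower, beside 19% and 21.6% of all tested genes, with a median of -0.00213. With the S100 limit at 3% the log2 ratios of Cxcl10, Ccl5 and Csf1 were -2.00, 1.76 and -0.51, each opposite in direction. Il1a stood at 1733 and 2972 CPM (1.71, 1.25 to 2.35), Tnf at 343 and 1149 CPM (3.35, 1.80 to 6.41), Il23a at 305 and 911 CPM (2.99, 1.51 to 6.06) and Csf1 at 457 and 713 CPM (1.56, 0.798 to 3.0). For Tnf, 11 of 29 UMIs lay in 1 cell. Ptgs2, which makes prostaglandins, stood at 1391 and 2615 CPM (1.88, 1.33 to 2.66), and Alox5ap, needed for leukotriene synthesis, had 17 and 19 UMIs (2.32, 1.14 to 4.76).

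Of 8 chemotactic receptors, C5ar1, Ccr1, Ptafr and Hcar2 were higher and the formyl peptide receptor Fpr1 lower (18 and 5 UMIs), beside 19% and 21.6% of all tested genes. Of 6 cytokine receptors 1 was higher (Csf2rb), of 9 pattern-recognition genes 1 (Tlr2), and of 7 maturity and retention receptors Cd24a was higher and Icam1 lower. Csf2rb turned to a log2 ratio of -0.29 at an S100 limit of 3%, and Cd24a to -1.03 with cells thinned. Hcar2, a receptor for butyrate and niacin, stood at 876 and 1783 CPM (2.04, 1.32 to 3.14). Of 12 stress and dissociation genes 4 were higher, beside the same 19%, Zfp36, Btg2, Nr4a1 and Ier2, led by Zfp36, which destabilises cytokine messages, at 1162 and 2615 CPM (2.25, 1.56 to 3.24). The stress list summed to 12610 and 17000 CPM in the T-cell libraries and to 12192 and 11900 CPM in the macrophage libraries. Its part in the other differences was not tested. The 10 highest ratios were Camk1d, Cd300a, Csrnp1, Dennd5a, Lrrc8d, Mctp1, Med13l, Mycbp2, Tnf and Uvrag, on 13 to 34 UMIs in the T-cell library labelled IL34KO.

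Genes that were lower included Wfdc17, at 2343 and 515 CPM (123 and 13 UMIs, 0.220, 0.114 to 0.390), and Ifitm1, at 2533 and 1347 CPM (0.532, 0.354 to 0.780). Iigp1, an interferon-inducible GTPase, had 24 UMIs in the WT T-cell library and 0 in the other, at least 3.85-fold lower against the limit of 3 counts. Wfdc21 had 19 and 1 UMIs, and Cox17, Cstdc4 and Lgals3 each had 32 to 34 UMIs against 4. Lcn2 stood at 895 and 238 CPM (47 and 6 UMIs). Ncor1, Polr2a, Rb1cc1 and Ttc39b, on 18 to 21 UMIs against 2, completed the list. Among 8 type I interferon genes 1 was higher and 3 lower, and among 13 interferon-gamma genes 4 were higher and 3 lower, beside 19% and 21.6% of all tested genes.

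Few genes stood apart in the same direction in both sorts. Of the 727 genes compared in both, 3 (0.413%) were at least 1.5-fold higher in both, 4 (0.55%) lower in both and 14 (1.93%) opposite. Without the granule-gene-high cells, of 707 genes 4 (0.566%) were higher in both, 4 (0.566%) lower in both and 16 (2.26%) opposite. The 3 higher were Cmss1, Fbxl5 and Ifi27l2a. Fbxl5, the iron-sensing subunit of a ubiquitin ligase that controls iron regulatory protein, stood at 1091 and 1796 CPM in the macrophage libraries (1.65, 1.47 to 1.84) and 800 and 1902 CPM in the T-cell libraries (2.38, 1.54 to 3.69). Without the granule-gene-high cells its ratio in the macrophage libraries was 1.46. Ifi27l2a stood at 1007, 1832, 819 and 1308 CPM, and the interval of its second ratio included 1 (1.6, 0.983 to 2.57).

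Cmss1 stood at 438, 693, 857 and 2219 CPM, but 27 of its 56 UMIs in the T-cell library labelled IL34KO lay in 1 cell, and the other barcodes showed the same order, at 345 and 473 and at 579 and 1153 CPM. The named genes lower in both were Lcn2, Ffar2, a receptor for short-chain fatty acids, and Ppia, the cyclophilin A gene. Ffar2 had 106 and 130 UMIs in the macrophage libraries (0.610, 0.469 to 0.796) and 16 and 5 in the T-cell libraries (0.650, 0.186 to 1.86). Lcn2 and Ppia were no longer lower in the macrophage libraries without the granule-gene-high cells, with ratios of 1.62 and 1.18.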

How the data were processed

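Single-cell RNA was counted by the authors with Cell Ranger 7.0.1 on the mm10 genome, per the submitters' processing notes; the deposited values are whole-number UMI counts per gene and barcode for 32285 genes in 6 libraries. The labels' protocols name both 5′ and 3′ kits; the sources used here do not say which made which library. Libraries held 43660889 to 114425913 UMIs.

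Groups came from sample titles, with 1 library each. Neutrophil UMIs were summed per library with Python 3.11.15, numpy 2.4.6, scipy 1.17.1 and pandas 2.3.3, and the IL34KO to WT ratio was computed on CPM in 2 comparisons. Size replaced a test: at least 20 UMIs over both libraries, 50 CPM in 1 of them, and a 1.5-fold ratio of CPM. Log2 ratios, used for ranks and list medians, had 10 CPM added to both libraries. edgeR 4.0.16 (TMM) and DESeq2 1.42.0 (median of ratios) in R 4.3.3 gave other scalings and no test. The comparison was tested on simulated data with counting error only. Of genes simulated without a change, 7.79% in the macrophage libraries and 25.1% in the T-cell libraries were counted as higher or lower. No doublet caller was run; 1 alternative left out the top 5% of cells by UMIs. T cells used as background held at least 2 UMIs of Cd3d, Cd3e and Cd3g.

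Genes named were the 10 highest and 10 lowest log2 ratios of each comparison, those apart in the same direction in both, the 5 most abundant members of each of 33 gene lists, list members counted as higher or lower, the genes of the rule, neutrophil markers outside it and the 15 most abundant genes; mitochondrial, ribosomal, Gm and Rik genes, among others, were left out. Beyond this, genes of the granule classes and of the S100 ranges were picked after their values were seen. Members, lists and alternatives were chosen with earlier results of these data known. Beside the main settings 16 others were tried; 1 more, without granule-gene-high cells, was added after seeing the data. Of 396 list genes, 5 had no matching symbol in the files and were not analysed here. Promoter windows came from RefSeq and were trimmed to lie before RefSeq and GENCODE starts.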

Additional observations from a re-analysis of the deposited data

Results flagged for a closer look

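Of the 727 genes compared in both sorts, 14 differed in direction at least 1.5-fold each way, and 4 of them are given here. The difference between the comparisons was not tested. Wfdc17 had a log2 ratio of the library labelled IL34KO over WT of 0.79 in the macrophage libraries and -2.16 in the T-cell libraries. For Cstdc4, a stefin-family gene, the ratios were 0.61 and -1.88, and for the interferon-inducible GTPase Iigp1 0.83 and -5.55, the last with 0 UMIs in the T-cell library labelled IL34KO and therefore set by the 10 CPM added. Cybb, of the NADPH oxidase, ran the other way, at -0.94 and 0.89. Without the granule-gene-high cells Cybb stood at 492 and 458 CPM in the macrophage libraries. Its log2 ratio in the T-cell libraries was -1.58 with the S100 limit at 3%, and -0.00812 without the conditions on C1q genes, Csf1r and Epcam. That of Iigp1 in the T-cell libraries was 0.13 with the limit at 0.5%.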

How the results depend on the processing

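Each of 3 limits bears on all comparisons: 1 library per group, 43 and 18 neutrophils in the T-cell libraries, and a sort that sets the shares. No paired analysis was possible because the labels give no replicate numbers and each group is 1 library. The ratio of shares stayed between 1.98 and 2.53 in the macrophage sort and between 0.51 and 0.77 in the T-cell sort. Counts of genes at least 1.5-fold higher and lower moved as follows. Without an expression floor they were 3895 and 3982 in the macrophage libraries, 2153 and 3053 in the T-cell libraries, and 356 and 821 in both; with a floor of 200 CPM they were 20 and 48 in the macrophage libraries, both by construction of the floor. With cells thinned to 500 UMIs they were 228 and 225 in the macrophage libraries and 45 and 58 in the T-cell libraries. Without the conditions on C1q genes, Csf1r and Epcam they were 66 and 112, 315 and 427, and 1 and 18 in both. With S100a8 plus S100a9 at 3% they were 69 and 55 in the T-cell libraries, with 2 lower in both; at 0.5%, 6 were higher and 12 lower in both. Genes lower in both numbered 2 with at least 500 genes per cell and 7 with up to 20% mitochondrial UMIs. Genes higher in both numbered 5 without the top 5% of cells by UMIs and 6 with TMM or median-of-ratios scaling. Log2 ratios that changed sign in the macrophage libraries were, at 0.5%, Ccl5 (-0.48); at 3%, Ccl2 (1.03) and Il23a (0.15); without the C1q, Csf1r and Epcam conditions, Bax (0.13), Ext1 (-0.43), Ppia (0.0882) and Stfa1 (-0.0448); without the top 5% of cells, Hist1h1b (0.54) and Top2a (0.52); thinned, Ffar2 (0.51) and Stfa2 (-0.0384). Without granule-gene-high cells they were Chil3 (0.0305), Hist1h1b (0.63), Lcn2 (0.69), Lyz2 (0.0437), Ngp (0.0385), Orm1 (0.35), Ppia (0.23) and Top2a (0.47), and the median of the secondary granule list (0.0371). In the T-cell libraries they were, at 0.5%, Iigp1 (0.13); at 3%, Ccl5 (1.76), Csf1 (-0.51), Csf2rb (-0.29), Cxcl10 (-2.00), Cybb (-1.58) and Ffar2 (0.27); without the conditions, Cybb (-0.00812) and Ifitm1 (0.00824); thinned, Cd24a (-1.03), Il1a (-0.0803) and Rb1cc1 (0.24). With cells thinned, Bnip3l in the macrophage libraries also changed sign (0.92). The cause was not tested. Over all alternatives run, 531 of 690 recomputed gene ratios of the macrophage libraries and 714 of 750 of the T-cell libraries stayed within the counting interval of the value reported. Counting intervals were wider in the T-cell libraries, which had fewer UMIs, so the 2 counts do not rank the sorts by stability.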

Other observations

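Oxidative-burst and glucose genes of the neutrophils, not described above, gave the following values. Ncf1, a cytosolic subunit of the NADPH oxidase, stood at 663, 652, 724 and 555 CPM in the WT macrophage library, the library labelled IL34KO, the WT T-cell library and the T-cell library labelled IL34KO. Prdx5, a peroxiredoxin, had the highest CPM of that list in each of the 4 libraries, at 1902 to 2562 CPM. Of 10 oxidase and extracellular-trap genes tested in the macrophage libraries, Cybb and Padi4 were at least 1.5-fold lower in the library labelled IL34KO, beside 14.9% of all tested genes, and 0 were higher. With the granule-gene-high cells left out, Padi4 alone was lower. Padi4, the enzyme that citrullinates histones in extracellular traps, had 32 UMIs in the WT and 24 in the other macrophage library.

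The glucose transporter gene Slc2a3 stood at 186, 193, 229 and 159 CPM in the 4 libraries, against 6.94 to 12.6 CPM in other kept barcodes. Slc2a1 stood at 134, 177, 171 and 317 CPM, against 106 to 138 CPM there. Of 20 hypoxia and glycolysis genes tested in the macrophage libraries, 2 were at least 1.5-fold higher in the library labelled IL34KO, the lactate exporter Slc16a3 and the glycolytic enzyme Pgk1, beside 5.87% of all tested genes. Pfkfb3 and Bnip3l were lower, beside 14.9% of all tested genes. With the granule-gene-high cells left out, 1 of the 20 was higher, Pgk1, and 0 were lower. Il1rap, the co-receptor of interleukin-1 signalling, stood at 784, 1086, 838 and 1110 CPM, against 20.1 to 58.3 CPM in other kept barcodes.

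The 5 neutrophils of the GVHD macrophage library held 12875 UMIs in sum, with a median of 2222 UMIs and a median S100a8 plus S100a9 share of 8.01%, and entered no comparison.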
